A study of Drosophila melanogaster with 2 samples.

Results

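The 1097 regions described here are the ChIP-seq peaks of a tagged CG14441 protein that were found in the more permissive of the 2 peak sets deposited for the whole experiment, with no counterpart in the stricter one. The permissive, or relaxed, set held 5815 peaks on 6 chromosome arms (X, 2L, 2R, 3L, 3R and 4). Peaks without a single base in common with any peak of the stricter, or conservative, set were taken, which gave 1097 of 5815 peaks (18.9%, exact 95% interval 17.9 to 19.9). The other 4718 peaks, called shared here, overlapped a conservative peak. The members were thus chosen by measured values, the signals behind both sets.

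All samples came from 1 group: whole Drosophila melanogaster embryos, collected from 0 to 24 h of age, of the strain labelled CG14441-GFP. They made CG14441 fused to eGFP and were immunoprecipitated with an antibody against GFP, as 2 biological replicates. The labels speak of an insertion that targets CG14441, but the sources used here name neither the promoter behind the fusion nor the untagged copies left in the strain. Embryos of many ages were pooled, no sex was recorded, and no second condition was studied. The lists hold no expression values, so the labelled stage was not checked against markers.

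CG14441 has no assigned function in the gene names of the annotation. ChIP-seq maps where a protein, or chromatin bound to it, is brought down by the antibody, and a peak caller turns the enriched places into regions with a signal and a summit. The irreproducible discovery rate (IDR) ranks the candidate peaks of 2 lists together and keeps those whose rank holds in both. In the usual use of the method, a conservative set rests on the true replicates, and a relaxed set may rest on pooled reads that were split at random. A site strong in 1 library and weak in the other can then pass in the pooled comparison alone. A promoter is the stretch around the transcription start site (TSS) where the transcription machinery assembles. Introns and intergenic DNA hold the enhancers that drive genes in parts of the embryo, while coding exons are seldom bound.

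The sequences below show the members at their extremes: the 2 strongest in introns, at promoters and in coding exons, the 2 strongest inside CG14441 itself, and the 2 strongest with a DRE, the DREF-binding element TATCGATA. Peaks whose windows held over 30 annotated UTR bases were passed over, as was 1 chromosome arm. Each is 101 bases of the dm6 plus strand, 5′ to 3′, with the summit in the middle. Capitals mark matches on either strand to any of 14 motifs, among them the BEAF-32 core CGATA, the homeodomain core TAATTA and the Pho core GCCAT.
bun intron, chr2L:12520289-12520389: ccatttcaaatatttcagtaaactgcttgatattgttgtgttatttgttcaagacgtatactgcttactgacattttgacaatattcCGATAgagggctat
simj intron, chr3L:10678809-10678909: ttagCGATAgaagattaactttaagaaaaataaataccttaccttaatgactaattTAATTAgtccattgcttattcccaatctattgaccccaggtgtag
Sox102F promoter, chr4:807508-807608: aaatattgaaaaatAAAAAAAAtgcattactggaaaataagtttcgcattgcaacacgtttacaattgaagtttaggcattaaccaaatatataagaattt
CG42240 promoter, chrX:6330682-6330782: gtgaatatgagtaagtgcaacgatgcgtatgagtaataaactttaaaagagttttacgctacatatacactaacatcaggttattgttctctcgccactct
Naprt coding exon, chr2L:4195732-4195832: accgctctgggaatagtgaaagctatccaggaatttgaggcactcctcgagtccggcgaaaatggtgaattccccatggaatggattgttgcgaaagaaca
Pih1D1 coding exon, chr2L:12717872-12717972: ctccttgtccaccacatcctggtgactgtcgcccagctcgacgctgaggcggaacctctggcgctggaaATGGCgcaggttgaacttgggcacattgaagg
CG14441 intron, chrX:6708044-6708144: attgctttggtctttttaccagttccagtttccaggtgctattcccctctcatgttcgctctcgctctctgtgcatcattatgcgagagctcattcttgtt
CG14441 coding exon, chrX:6714275-6714375: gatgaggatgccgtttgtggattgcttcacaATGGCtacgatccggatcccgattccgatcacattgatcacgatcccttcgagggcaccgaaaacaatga
CG8086 intron, chr2L:8255593-8255693: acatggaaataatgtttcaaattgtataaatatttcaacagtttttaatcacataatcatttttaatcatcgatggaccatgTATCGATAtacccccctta
CG5902 promoter, chr3R:23986558-23986658: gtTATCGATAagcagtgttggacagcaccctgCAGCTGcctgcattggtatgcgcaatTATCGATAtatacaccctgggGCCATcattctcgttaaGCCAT
For comparison, the strongest shared peak inside CG14441 (intron, chrX:6711484-6711584) reads as follows.
CG14441 intron, shared: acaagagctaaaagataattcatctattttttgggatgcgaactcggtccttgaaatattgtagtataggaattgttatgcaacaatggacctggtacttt

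The A+T content of these windows was 67.3% at bun, 69.3% at simj, 76.2% at Sox102F and 64.4% at CG42240. It was 51.5% at Naprt and 39.6% at Pih1D1. In CG14441 it was 54.5% in the intron and 49.5% in the coding exon, against 65.3% in the shared intronic window. The CG5902 window holds TATCGATA at 2 places, and that of CG8086 at 1.

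The members were weak peaks, a property the choice itself brings. Their deposited signal, a value of the authors' caller whose scale is not stated, had a median of 68.7 (quartiles 62.6 and 76.8, range 2.05 to 299). Shared peaks had a median of 124 (quartiles 88.1 and 208, highest 3245). A signal over 100 was found in 54 members (4.92%) and in 3055 shared peaks (64.8%). Almost every member, 1095 of 1097, was 324 bp wide, the commonest width, against 3530 of 4718 shared peaks. In 66 places 2 members overlapped each other, so the 1097 members made up 1031 separate regions. The gap to the nearest conservative peak had a median of 4895 bp, was under 1000 bp for 219 members and over 10 kb for 348 (31.7%).

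Many members missed the conservative set by little. In the ranking behind that set, the candidate with the nearest summit had a global IDR over 0.01 and up to 0.02 for 311 members (28.4%), and of 0.02 to 0.05 for 226 (20.6%). Values from 0.05 to 0.1 belonged to 104 members, from 0.1 to 0.5 to 192 and above 0.5 to 185. No candidate at all overlapped 79 members (7.20%). The nearest misses were a coding-exon member in Mcm7, a subunit of the replicative helicase (chr3L:8892441-8892764, signal 71.4, IDR 0.01001 against the limit of 0.01), and one at bcn92 (chrX:2149546-2149869, signal 83.5, IDR 0.01002). In the relaxed ranking, 2 overlapping members at Atg4a, an autophagy protease gene, stood just inside the limit (signals 59.5 and 7.19, the first with an IDR of 0.00999), and the first candidates outside had 0.01001. By position, a member in an intron of msn, a Ste20-family kinase gene, lay 12 bp from a conservative peak, and one in an intron of hiw, a ubiquitin ligase gene of the synapse, 46 bp. The shared peaks with the least overlap, at AdamTS-B and Tim17a2, shared 10 and 18 bp with a conservative peak.

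Most members were found in a single replicate's own thresholded set or in none. The set of replicate 1 alone held an overlapping peak for 213 members (19.4%), and that of replicate 2 alone for 305 (27.8%). Both sets did for 11 members (1.00%, exact 95% interval 0.502 to 1.79) and neither for 568 (51.8%, 48.8 to 54.8). Among shared peaks, 2838 (60.2%) were in both sets, 605 in that of replicate 1 alone, 548 in that of replicate 2 alone and 727 (15.4%) in neither. Over all relaxed peaks, 63.1% were in the set of replicate 1, 63.7% in that of replicate 2, 49.0% in both and 22.3% in neither. At an IDR of 0.005 or below, 2.08% of members were in both sets and 28.4% in neither, and under either stricter rule for what counts as shared 4.23% were in both. Nothing is read from these shares, because the same reads made the sets, and no test was made anywhere in this comparison of members with shared peaks.

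**Figure D1:**
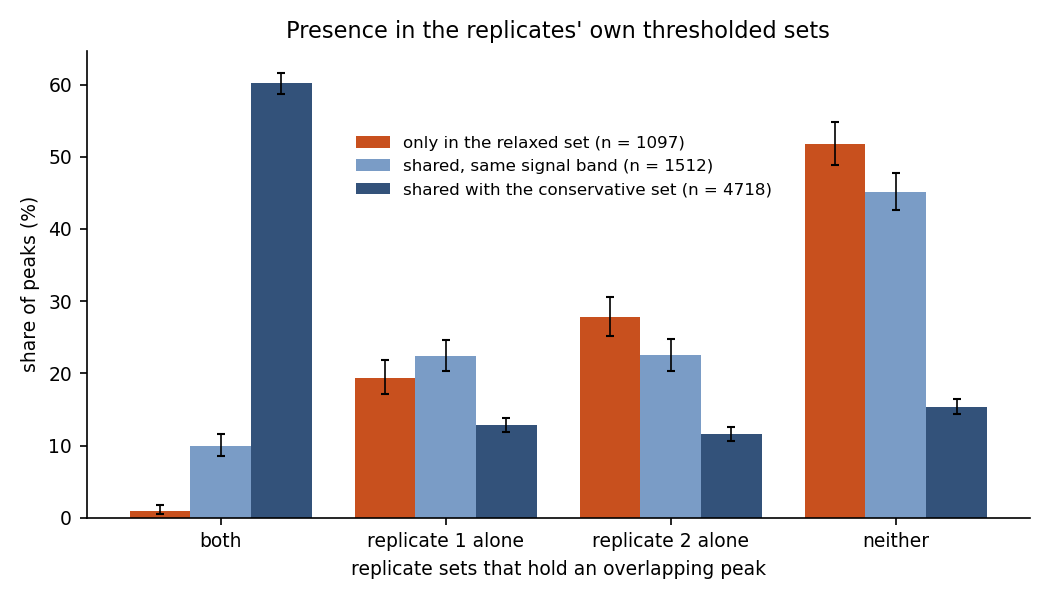
Bars give the share of peaks (%, vertical axis) that overlap a peak in the thresholded set of both replicates, of 1 alone or of neither, with exact 95% intervals that cover counting error alone. Of 1097 members 1.00% are in both, against 9.99% of the 1512 shared peaks with signals from 15.1 to 98.5 and 60.2% of all 4718 shared peaks. The gap between members and shared peaks differed between narrower ranges of signal.

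The comparison depends on signal. Between 15.1 and 98.5, the middle 90% of member signals, there were 987 members (median signal 68.7) and 1512 shared peaks (median 81.0), so even in this band the members were weaker. In the band 5 members (0.507%, 0.165 to 1.18) were in both replicates' sets, against 151 shared peaks (9.99%, 8.52 to 11.6). Exactly 1 replicate's set held 45.8% of members and 44.9% of shared peaks there, and neither held 53.7% and 45.1%. In narrower ranges of signal, cut at the quartiles of the members, the shares in exactly 1 set differed. Below 62.6 it was 26.6% of members and 31.0% of shared peaks, and from 62.6 to 68.7 it was 28.5% and 15.4%. From 68.7 to 76.8 it was 137 of 274 members, against 92 of 346 shared peaks (26.6%), and above 76.8, up to 299, it was 83.6% and 29.1%. The shares in both sets moved with signal too. Below 62.6 they were 0.730% of members and 36.5% of shared peaks, and from 62.6 to 68.7 they were 0% and 2.44%. They were 0% and 1.73% from 68.7 to 76.8, and 3.27% and 61.6% above that. The 9.99% of the band thus joins ranges of signal with unlike shares.

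Replicate signals were taken from each replicate's own ranked list, at the candidate with the nearest summit. Of the members, 1000 had a candidate in both lists, 82 had none in that of replicate 1 and 15 none in that of replicate 2. The signals differed by more than 2-fold in 391 of 1000 members (39.1%, exact 95% interval 36.1 to 42.2) and in 196 of 4702 shared peaks (4.17%, 3.62 to 4.78). The median difference, on the log2 scale and without sign, was 0.85 in members and 0.31 in shared peaks, and 0.30 in shared peaks in the signal band. The weaker of the 2 signals exceeded 30 in 45 members (4.50%), against 95.7% of shared peaks in the signal band and 97.6% of all. The 2 lists compared for the relaxed ranking, by contrast, differed by a median of 0.23 in members and 0.25 in shared peaks. Replicate 2 had the higher signal in 549 of 1000 members (54.9%) and in 1756 of 4702 shared peaks (37.3%). A very low value can belong to a side candidate that overlaps a stronger one. With the strongest overlapping candidate in its place, 33.6% of members and 2.47% of shared peaks differed by over 2-fold. That alternative was chosen after seeing the data. The same reads entered the choice of members, and wider differences between replicates can follow from that choice. Nothing is therefore read from these differences or from the weaker signals.

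**Figure D2:**
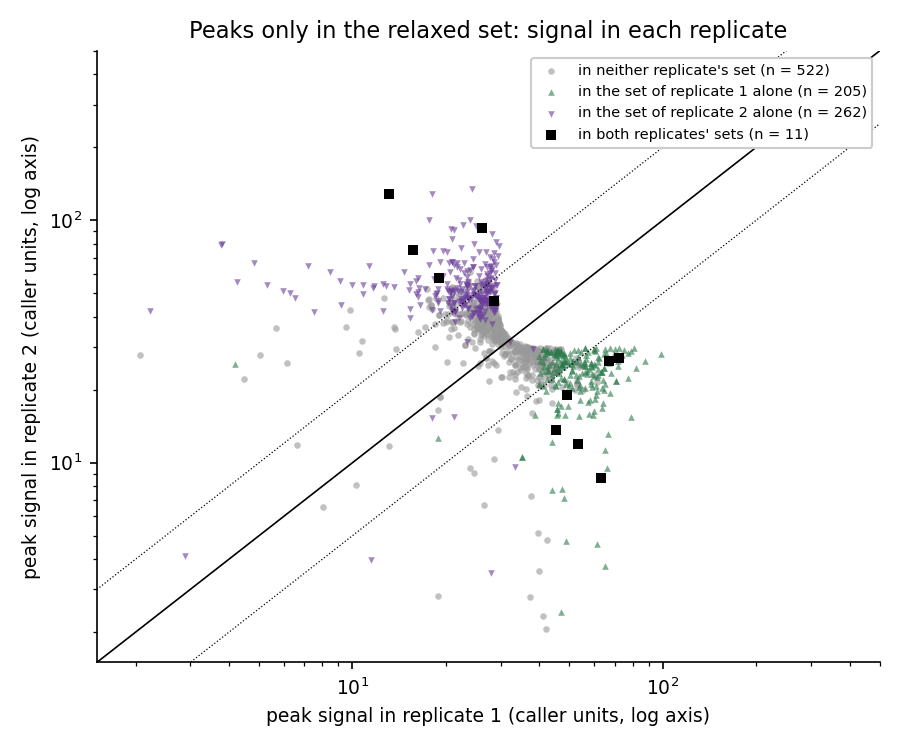
Each point is 1 of the 1000 members with a candidate in both replicates, at its signal in replicate 1 (horizontal) and replicate 2 (vertical), both in caller units on log axes. The solid line marks equal signals and the dotted lines a 2-fold difference, and symbols give the replicate sets that hold an overlapping peak. The points form 2 arms along which the weaker signal stays near or under 30 (highest 31.9). The same reads entered the choice of members, so nothing is read from this form.

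The strongest members had unequal signals at the nearest candidates of the 2 replicates, which can follow from the choice of members. The strongest of all, in an intron of bun, a TSC22-family regulator (chr2L:12520275-12520422, signal 299), had a signal of 174 in replicate 2 and no candidate in replicate 1. The next, in an intron of simj, which encodes the p66 subunit of the NuRD chromatin complex (chr3L:10678697-10679020, signal 296), had 13.1 in replicate 1 and 128 in replicate 2. A member in an intron of ChAT, the gene of choline acetyltransferase, which makes acetylcholine (chr3R:18719780-18720103, signal 244), went the other way, with 140 in replicate 1 and no candidate in replicate 2. Of the 6 strongest intronic members, ctrip, a ubiquitin ligase gene (98.7 in replicate 1 and 28.1 in replicate 2), and CG46321 (signal 128) were also higher in replicate 1. CG9837 had 18.1 in replicate 1 and 128 in replicate 2.

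At promoters, Sox102F, which encodes a SoxD-group HMG-box factor (FBgn0039938, chr4:807396-807719), came first with a signal of 194, its summit at -211 bp from the TSS. It had 77.6 in replicate 2 and no candidate in replicate 1. CG42240 (chrX:6330570-6330893, signal 164) had 26.1 in replicate 1 and 93.1 in replicate 2. DNaseII, an acid nuclease gene, had a signal of 150 with no candidate in replicate 1 and 66.1 in replicate 2, and was in neither replicate's set. Irp-1A, an iron regulatory protein gene, had 135 with 15.7 in replicate 1 and 75.3 in replicate 2. fkh, the FoxA factor of gut and salivary gland, had 122 with 28.2 in replicate 1 and 87.8 in replicate 2. The summit between CalpB, a calpain protease gene, and Taf2, a TFIID subunit gene, had 124 with 87.3 in replicate 1 and 26.2 in replicate 2. The others of the 10 strongest were CG5335 (153), EndoGI (125), mRpL53 (116) and CG10139 (116), of which CG10139 was higher in replicate 1. All 10 summits lay upstream of the nearest TSS.

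In the 11 members found in both replicates' sets, the nearest candidates of the 2 replicates still differed in signal. The strongest of them were simj, CG42240, Irp-1A, CG46321 and CG6163, the last with 53.2 in replicate 1 and 11.9 in replicate 2. For simj, CG42240 and Irp-1A the nearest candidate of replicate 1 had an IDR from 0.834 to 0.912, so the thresholded peak that overlapped them there was a neighbour. The same held in replicate 2 for CG46321 (IDR 0.498) and CG6163 (0.753). The rest, named after their values were seen, were at CG17544, NK7.1, PGRP-SA, mEFTu1, Tom7 and msn. Among these the nearest candidate missed the limit in replicate 1 at NK7.1 (IDR 0.833), and in replicate 2 at PGRP-SA (0.769) and mEFTu1 (0.771). Where it missed, the signal compared is not that of the thresholded peak. Tom7, a subunit of the mitochondrial import channel, had the smallest difference (28.5 in replicate 1 and 46.4 in replicate 2, both with an IDR under 0.01). In 7 of the 11 the member summit itself lay inside a thresholded peak of both replicates.

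The lowest deposited signals had another form. The members at rept, which encodes an AAA+ ATPase of chromatin complexes (signal 2.07), and at naz (2.05) had signals of 50.2 and 32.2 (rept) and 30.2 and 35.3 (naz) in the lists compared for the relaxed ranking. Such a deposited signal below both compared values occurred in 69 members (6.29%) and 150 shared peaks (3.18%). The msn member (7.07, against 58.5 and 75.3) was one of them.

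Promoters and introns held most summits in both members and shared peaks, while coding exons held a larger share of members. Promoters, within 500 bp of a protein-coding TSS, held 390 member summits (35.6%, exact 95% interval 32.7 to 38.5), against 35.4% of shared peaks in the signal band and 42.6% of all shared peaks. Introns held 439 (40.0%), against 42.6% and 39.5% in the same order, and 187 (17.0%) lay outside protein-coding genes, against 19.2% and 15.8%. Coding exons held 52 member summits (4.74%, 3.56 to 6.17), against 21 of 1512 shared summits in the signal band (1.39%, 0.862 to 2.12) and 31 of 4718 in all (0.657%, 0.447 to 0.931). The 5′ UTR class held 14 members (1.28%) and the 3′ UTR class 15 (1.37%), against 0.466% and 0.911% of all shared peaks. Class moves with signal, and signal entered the choice of members, so these intervals describe counting error and are no test.

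**Figure D3:**
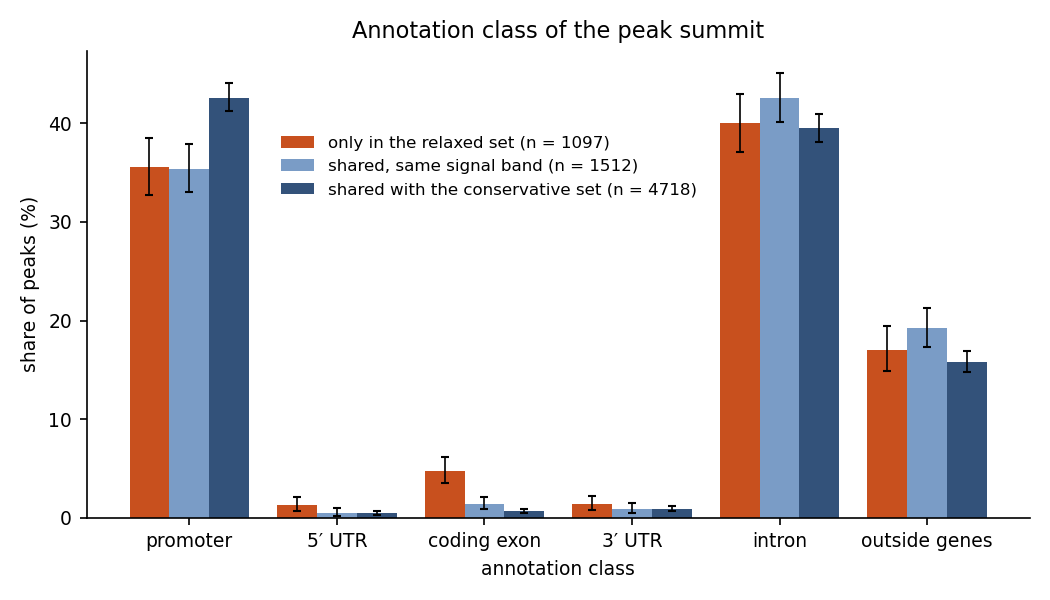
Bars give the share of summits (%, vertical axis) in each annotation class, with exact 95% intervals, for 1097 members, 1512 shared peaks in the signal band and all 4718 shared peaks. Promoter shares of 35.6% and 35.4% stand beside 42.6%, and coding exons hold 4.74%, 1.39% and 0.657%.

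The coding-exon members were mostly in neither replicate's thresholded set, as were 51.8% of all members. Of the 52, 41 overlapped no thresholded peak of either replicate, 6 were in the set of replicate 1 alone and 5 in that of replicate 2 alone. Their share was 7.22% of the 568 members in neither set, against 1.79% of the 727 shared peaks in neither set. With signals below 62.6 it was 6.57% of members and 1.48% of shared peaks. From 62.6 to 68.7 it was 8.03% of members (5.10 to 11.9) and 3.25% of shared peaks (0.893 to 8.12). It was 3.28% and 0.289% from 68.7 to 76.8, and 1.09% and 0.626% above that, up to 299. The strongest were in Naprt, a nicotinate phosphoribosyltransferase gene of NAD synthesis (chr2L:4195620-4195943, signal 90.8, with 61.6 in replicate 1 and 24.4 in replicate 2), and in Pih1D1, which encodes a PIH-domain cochaperone (chr2L:12717760-12718083, signal 78.6, with 50.9 and 24.0 in the same order). With members limited to an IDR of 0.005 or below, the share was 1.70% (9 of 529). Beyond the promoter window, the strongest 5′ UTR members were in dop, a MAST-family kinase gene (signal 126), and KrT95D (91.8). The strongest 3′ UTR members were in Plzf (85.2) and RpS26 (73.7), a small-subunit ribosomal protein gene.

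Fewer promoter members than shared promoter peaks had their summit upstream of the TSS. Their median signed position was 41 bp upstream (-41), against -59 bp in shared promoter peaks in the signal band and -100 bp in all shared promoter peaks. The summit was upstream in 243 of 390 members (62.3%, 57.3 to 67.1), against 375 of 535 (70.1%, 66.0 to 73.9) and 1617 of 2012 (80.4%, 78.6 to 82.1). Summits 50 to 150 bp upstream made up 28.2%, against 26.2% and 36.4% in the same order. Among shared peaks the position moved with signal, and members were weaker even in the band. A second gene had a TSS in the window in 109 members (27.9%), against 29.5% and 36.4%. Outside the gene lists the nearest gene is named. Members above a signal of 76.8 were at promoters in 42.9% of cases (118 of 275), and those from 62.6 to 68.7 in 30.3% (83 of 274). At the same signals the promoter shares of shared peaks were 41.0% and 34.1%.

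Of 439 intronic members, 305 (69.5%) were in a gene whose span held a conservative summit. Long genes hold much of the intronic sequence, and of 1977 genes of 10 kb or more 1041 held no conservative peak, so nothing is read from that share. The intronic members had 346 host genes, of which 73 held 2 or more and 15 held 3 or more. MYPT-75D, a myosin phosphatase targeting gene of 41219 bp, held 5 (signals 4.74 to 86.9). Eip75B, an ecdysone-induced nuclear receptor gene (62.0 to 87.5), rdx, which encodes an adaptor of a cullin-3 ubiquitin ligase (2.42 to 77.6), and CG1677 (12.7 to 94.1) held 4 each.

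The A+T-rich centre of the shared peaks was missing from the members as a whole. In 20 bp bins at the summit, A+T was 57.9% and 58.0% in members, against 60.9% and 61.2% in shared peaks in the signal band and 64.9% and 65.2% in all shared peaks. In the bin 490 bp upstream on the plus strand it was 59.4% in members, 57.6% in shared peaks in the signal band and 56.7% in all shared peaks. Within 50 bp of the summit, A+T averaged 57.8% in the 1097 members (quartiles 49.5 and 66.3), 60.7% in the 1512 shared peaks in the signal band (52.5 and 69.3) and 64.5% in all 4718 shared peaks (58.4 and 72.3). In narrower ranges of signal the differences were smaller than over all peaks. Below 62.6 the mean was 54.2% in members and 56.1% in shared peaks. It was 56.9% in members and 58.5% in shared peaks with signals from 62.6 to 68.7, and 58.2% and 58.7% from 68.7 to 76.8, but 62.0% and 64.8% above that, up to 299. Within 100 bp of the summit, members averaged 42.4% G+C, shared peaks in the signal band 39.6%, all shared peaks 37.2% and consecutive windows of the arms 42.2%.

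The composition followed the replicates. The 213 members in the set of replicate 1 alone averaged 63.0% ± 11.6 A+T within 50 bp and peaked at the summit, at 64.2% in the bin just upstream. The 305 members in the set of replicate 2 alone averaged 57.7% ± 9.80, with 57.6% in that bin, and the 568 in neither 55.8% ± 11.2, with 55.6% (SD over peaks). Windows with 70% A+T or more numbered 74 in replicate 1 alone (34.7%), 35 in replicate 2 alone (11.5%) and 68 of the 568 in neither. Shared peaks in the signal band had the same order with smaller gaps: 63.6% ± 9.78 in replicate 1 alone (n = 339), 59.8% ± 11.0 in replicate 2 alone (n = 340) and 59.5% ± 10.7 in neither (n = 682). Coding-exon summits averaged 39.7% A+T in members and 39.2% in shared peaks of the band, with 40.8% in all shared peaks. Intronic summits averaged 59.9%, 62.6% and 65.5% in the same order. Base composition can move with the libraries themselves, and its part in these differences was not tested.

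**Figure D4:**
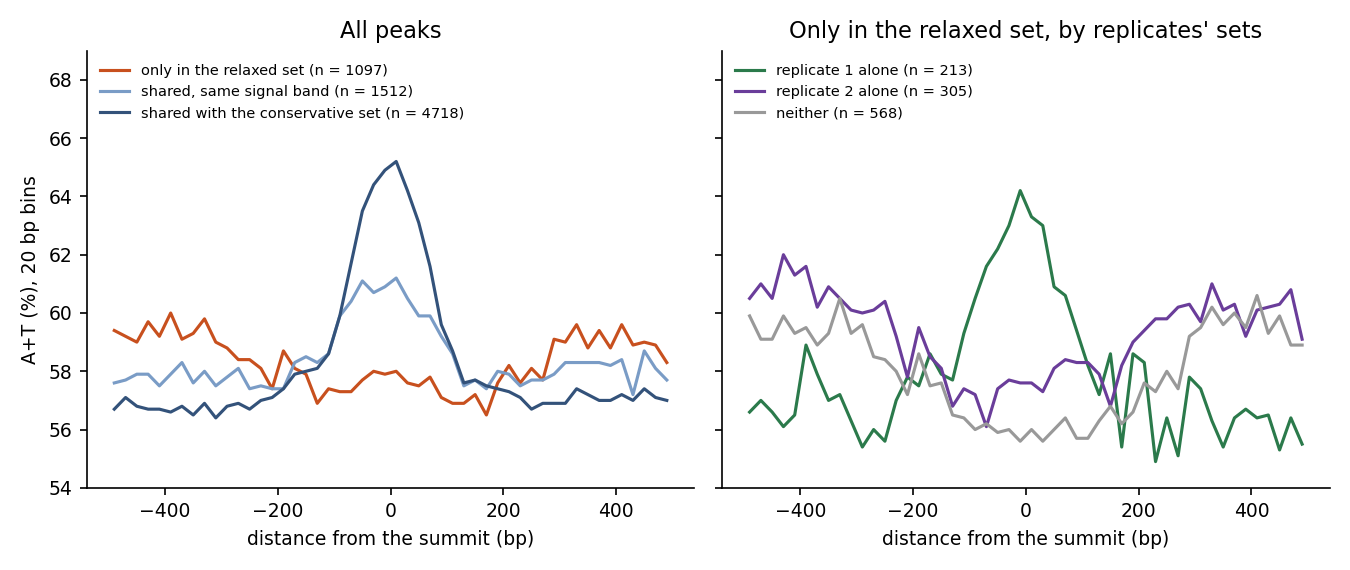
Lines give the A+T content (%, in 20 bp bins) by distance from the summit, on the left for members, shared peaks in the signal band and all shared peaks, on the right for members by replicate set. The vertical axis starts at 54%. Members stay near 58% at the summit where all shared peaks reach 65.2%, and the members in the set of replicate 1 alone rise to 64.2%.

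Motifs were counted within 100 bp of the summit on both strands. The DRE, promoter Motif 1 and the BEAF-32 core told members from shared peaks by little. DRE (TATCGATA) was in 26 members (2.37%), 2.18% of shared peaks in the signal band and 3.03% of all, against 0.564% of all consecutive windows of the arms. At promoters it was in 5.90% of members and 6.81% of shared peaks, against 6.45% of the windows at all protein-coding TSSs, and elsewhere in 0.424% of members and 0.222% of shared peaks. The core of promoter Motif 1 (GGTCACAC) was in 2.01%, 2.31% and 2.03%, against 0.430% of windows. At promoters it was in 4.87% of members and 4.08% of shared peaks, against 5.68% of TSS windows. The BEAF-32 core CGATA, which every DRE also holds, was in 26.7%, 26.3% and 27.4%, against 21.4% of arm windows and 37.1% of TSS windows. Motifs of A and T were rarer in members: TATAAAA was in 10.5%, 13.9% and 15.8%, against 9.26% of arm windows, and a run of 7 A or T in 18.6%, 23.7% and 24.5%, against 16.3%. The E-box CACGTG was in 3.46% of members (2.46 to 4.72), 1.92% of shared peaks in the signal band and 1.78% of all, against 2.36% of windows. CACACACA, a repeat, was in 9.84% of members in the set of replicate 2 alone, 2.82% of those in the set of replicate 1 alone and 5.46% of those in neither, against 4.09% of arm windows. GAGAGAG, bound by the GAGA factor, was in 5.90%, 0.939% and 4.23% in the same order, against 2.45%. At promoters, TATAAAA was in 11.3% of members and 17.7% of shared peaks, and TAATTA in 11.5% and 17.6%, against 13.1% and 9.39% of TSS windows. GAGAGAG was in 6.15% and 3.78% there, and the Zelda motif CAGGTAG in 2.05% and 0.646%, against 4.69% and 1.08% of TSS windows. These matches are descriptions of the letters in a window.

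Among genes of 10 kb or more, the gene of the tagged protein led in relaxed peaks per length, but not in members. Between 500 bp upstream of its start and its end, CG14441 (FBgn0029895, chrX:6699508-6719389, 19882 bp) held 16 relaxed-set summits in 13 separate regions, 4 of them members and 12 shared. At 8.05 peaks per 10 kb it ranked first of 1977 protein-coding genes of 10 kb or more, ahead of CG14434 with 5.89, and the median gene had 0.123. With members alone it held 2.01 per 10 kb and had rank 3, behind CG45088 with 2.35. In the replicates' own sets it also had rank 3, with 8 peaks in replicate 1 and 9 in replicate 2. Of 2680 consecutive stretches of 50 kb, the one with most of the gene (chrX:6700001-6750000) held the most members, 8 against at most 6 elsewhere. It also held the most relaxed peaks, 26 against at most 16, while its 12 peaks in replicate 1 and 15 in replicate 2 were equalled in another stretch. This measure was chosen after the peaks there were seen. Members made up 18.9% of all relaxed peaks, and nothing is read from 4 of 16 in the gene or 8 of 26 in the stretch.

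Inside CG14441 the members were 2 intronic and 2 coding-exon peaks. The intronic ones had signals of 73.8 (chrX:6707932-6708255, with 25.2 in replicate 1 and 53.3 in replicate 2) and 54.2 (chrX:6705801-6706124, with 24.6 and 34.2). The coding-exon pair overlapped, with signals of 55.9 and 5.06 (chrX:6714163-6714486 and chrX:6714363-6714686), and shared 1 candidate in each replicate, of 32.3 in replicate 1 and 26.8 in replicate 2. All 4 were in neither replicate's set. The shared peaks of the gene reached 268, in an intron (133 in replicate 1 and 142 in replicate 2). The other 4 members of the stretch were in the 3′ UTR, an intron and the promoter of CG3168 (70.6, 65.5 and 75.1), and at the promoter of CG14439 (62.2). Where the tagged construct was inserted is not stated in the labels, and its part in the peak count was not tested.

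**Figure D5:**
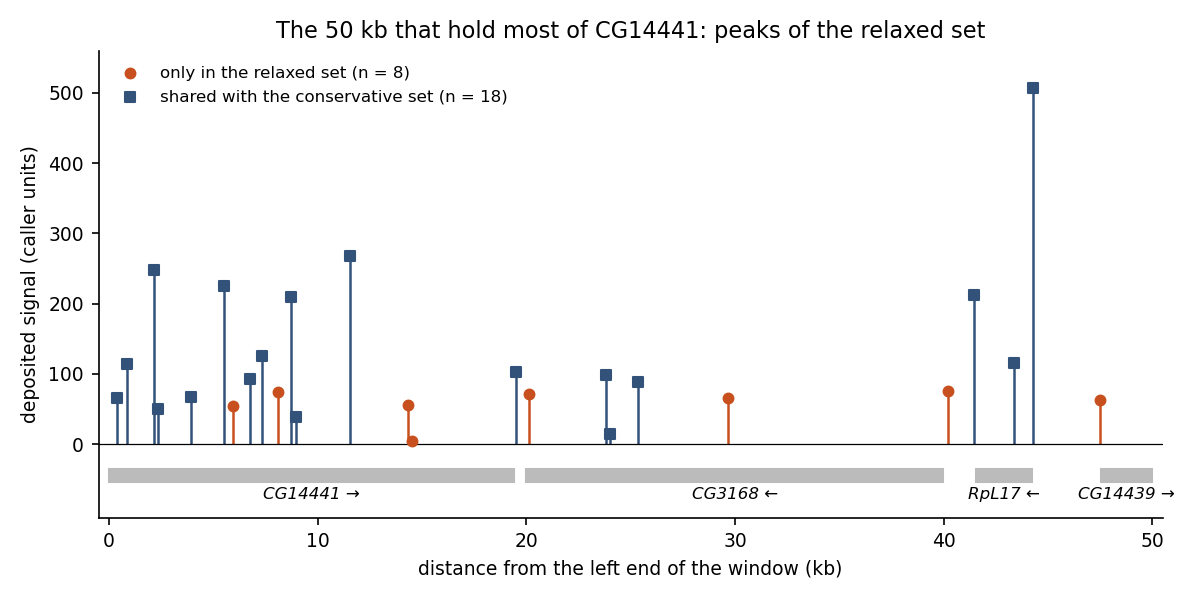
Each stem is 1 of the 26 relaxed-set peaks in the 50 kb that hold most of CG14441, at its distance from the left end (kb, horizontal) and with its deposited signal (caller units, vertical). Grey boxes below are protein-coding genes with arrows for their direction. The 8 members lie between 5.06 and 75.1, among 18 shared peaks that reach 507 at RpL17.

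By chromosome arm, members made up 20.3% of relaxed peaks on 2L (213 of 1049), 20.3% on 2R (214 of 1056), 21.5% on 3L (273 of 1270) and 17.6% on 3R (234 of 1326). On the X they made up 14.3% (158 of 1107, 12.3 to 16.5), and 13.9% without the 50 kb of CG14441, against 19.9% (18.7 to 21.0) on the 4 large autosomal arms together. Median member signals were 68.4 on the X and 68.6 on those arms. On the X, 42 members were in the set of replicate 1 alone and 31 in that of replicate 2 alone, against 171 and 269 on the large autosomal arms. The X members were higher in replicate 1 in 78 of 150 cases (52.0%), against 373 of 850 (43.9%). The median log2 ratio of replicate 1 to replicate 2 was 0.08 on the X and -0.32 on the large autosomal arms. X members were also richer in A+T, with 61.0% ± 10.7, against 57.3% ± 11.3 on the other arms (SD over peaks, n = 158 and 939). Shared peaks in the signal band had the same order, with 62.5% ± 10.2 and 60.3% ± 10.8 (n = 277 and 1235). All shared peaks had 64.9% on the X and 64.4% on the other arms.

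Chromosome 4, a small and mostly heterochromatic chromosome, had 5 members among 7 relaxed peaks (71.4%, 29.0 to 96.3). They were 19088 bp from the TSS of lgs, a BCL9-family adaptor of Wnt signalling (chr4:424732-424892, signal 283), at the Sox102F promoter (194), at -3920 bp from zfh2, a zinc-finger homeodomain factor gene (148), at -553 bp from Asator, a tau-tubulin kinase gene (123), and at the CG11360 promoter (85.1). In replicate 2 their signals were 141, 77.6, 100, 54.6 and 48.6, and all 5 were in its set. None had a candidate in the ranked list of replicate 1. That list had 24 candidates on chromosome 4 in all and that of replicate 2 had 210, while on the other arms the lists had between 19480 and 29065 each. The 5 members thus rest on 1 library. Elsewhere outside genes, the strongest members were near CG12483 (176) and Cul2, a cullin gene (171), both also without a candidate in replicate 1.

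A member summit lay within 500 bp of a TSS in 478 of 13945 protein-coding genes (3.43%), of which 408 had no conservative summit there and 70 had one. The rule itself keeps members away from conservative peaks, so nothing is read from this split or from the same split in the lists below. The conservative set itself reached 2637 genes (18.9%). The counts for 23 gene lists below are read against 3.43% and carry no test. A summit counts for every gene with a TSS in the window, so a listed gene need not be the nearest.

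Among genes of protein synthesis, 6 of 86 cytoplasmic ribosomal protein genes had a member (6.98%, exact 95% interval 2.60 to 14.6), led by RpL7A (signal 91.4) and RpL35 (88.0). The RpL35 summit lay at -494 bp from that gene and nearer to Rab18, at -95 bp. Of the 6, 5 lacked a conservative summit, in a list where 53 of 86 had one. RpL7A had 28.0 in replicate 1 and 64.7 in replicate 2, and RpL35 had 65.6 and 28.4 in the same order. Of 73 mitochondrial ribosomal protein genes, 5 had a member (6.85%, 2.26 to 15.3), led by mRpL53 (116) and mRpS16 (107), and none of the 5 had a conservative summit. The mRpS16 summit, at -74 bp, was nearer to cg, at -23 bp. Translation factors had 2 of 53, eIF2A (75.9) and eIF3d1 (70.2), and none of 33 aminoacyl-tRNA synthetase genes had one (0%, upper bound 10.6%).

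Other lists of basic cell work had 0 to 3 members each. Of 32 proteasome genes, 3 had a member (9.38%): Prosalpha4 (83.0), Rpn11 (68.5) and Prosbeta1 (66.4). The Prosalpha4 summit, at -258 bp, was nearer to kat80, at -95 bp. Of 84 oxidative phosphorylation genes, COX8 (115, no candidate in replicate 1 and 45.9 in replicate 2), COX5B (88.3) and ND-MNLL (68.8) had one (3.57%). The COX5B summit, at -285 bp, was nearer to IFT52, at -13 bp. Of 53 genes of RNA polymerase II, general factors and Mediator, Taf2 (124), MED6 (86.2) and Polr2A (75.1) had one (5.66%). Of 58 Rab and Vps trafficking genes, Vps45 (90.4), Rab18 (88.0, the RpL35 peak) and Rab11 (83.2) had one (5.17%). Among 29 cell cycle genes the member was at dup (79.1), the Cdt1 replication licensing gene, and among 24 heat shock genes there was none. The dup summit, at -85 bp, was nearer to SRPK, at -25 bp.

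Lists of embryonic patterning and signalling genes had at most 2 genes with a member each, in lists of 10 to 18 genes. The segment polarity list had 2 of 18: arr, a Wnt coreceptor gene (76.8, with 16.3 in replicate 1 and 58.0 in replicate 2), and en, the homeodomain gene engrailed (66.6, with 29.5 and 39.0). The dorsal-ventral and mesoderm list had 2 of 18: dl, the NF-κB-family factor Dorsal (78.3), and Mef2, a muscle factor (62.8), both beside a conservative summit. The EGF receptor list had pnt (70.4), an ETS factor, and kek1 (66.1), an inhibitor of the receptor, of 16 genes. fng (70.4), which encodes a glycosyltransferase that modifies Notch, was the 1 of 17 Notch pathway genes. fkh (122) and ttk (70.1), a zinc-finger repressor gene, were those of 12 epidermal, tracheal and gut genes. None was found among 10 Hox genes and cofactors, 17 maternal, gap and pair-rule genes, 18 neuronal and glial genes or 14 sex determination and dosage compensation genes, whose upper bounds run from 18.5% to 30.8%.

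Chromatin, germline and receptor lists had 1 or 2 such genes each. Trl, which encodes the GAGA factor, had a member of 64.0 beside a conservative peak of 324 and was the 1 of 18 insulator genes. With Jarid2 (66.3), a Polycomb-associated factor gene, it made 2 of 27 Polycomb and Trithorax group genes. The Trl summit lay at -254 bp from both Trl and CG42507. The Jarid2 summit, at -38 bp, was slightly nearer to Uch-L5, at -35 bp. stwl (58.6) was the 1 of 18 germline and piRNA genes. Of 119 odorant and gustatory receptor genes, Gr97a had a member (65.8; 0.840%, 0.0213 to 4.59), at a summit that also lies within 500 bp of a TSS of CG5521.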

How the data were processed

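Peak lists from anti-GFP ChIP-seq of whole embryos with CG14441-eGFP were analysed, in 1 group of 2 biological replicates on dm6. The 8 lists hold ranked candidates and thresholded peaks, of each replicate and of both series-level versions. The authors' caller gave each peak the deposited signal, on an unstated scale, and the same value in either compared list is treated as a deposited score. The deposited −log10 values of the global IDR, per the file layout, rank candidates, and thresholded peaks have an IDR of 0.01 or below. The deposited summit column gives bp from the peak start. The relaxed ranking (130811 candidates) compared 2 lists that carry no replicate names, so replicate signals come from the replicates' own lists. Of 5961 ranked peaks at that limit, 138 are absent from the relaxed list used here, and of 5235 behind the conservative set 119 are absent, of which 0 overlap a member. The aligner and caller were not given in the sources used here. Without read counts in the lists, the depth and the precision it gives are unknown, and no limit that needs a depth is given. The control was not analysed here. On the relaxed list, 8 peaks off the 6 arms were left out.

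Overlap means at least 1 bp. Summits were classed by Ensembl release 115 (annotation 6.54): within 500 bp of a protein-coding TSS, then 5′ UTR, coding exon, 3′ UTR, intron, outside. Of 262 symbols in the lists, 13 were not matched. Sequence came from NCBI RefSeq's dm6 genome. Coordinates are 1-based. Shares carry exact 95% Clopper-Pearson bounds, which hold counting error only and take each peak as independent. No p-value was computed. Overlap was checked on simulated peaks, and the promoter class and TSS distance on summits planted near annotated TSSs. The other classes were not checked in this way. The members, gene lists and motifs were chosen with earlier results of these data known. Named were CG14441; the strongest members (10 at promoters, 6 in introns, 4 outside genes, 2 in each other class, 5 in both replicates' sets); up to 2 per gene list and 3 on chromosome 4; the 2 nearest to a conservative peak; and the 2 of lowest signal. The further members of a small list, of chromosome 4 and of both replicates' sets, the host genes with most members and the peaks around CG14441 were named after their values were seen. Alternatives were other overlap rules, an IDR of 0.005, promoter windows of 250 and 1000 bp, all TSSs and either replicate's set alone. The tools were matplotlib 3.10.9, pandas 2.3.3, scipy 1.17.1, numpy 2.4.6 and Python 3.11.15.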

Additional observations from a re-analysis of the deposited data

How the results depend on the processing

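No paired analysis was possible because both samples form 1 group. Of 45 recomputed values, 27 stayed within the main interval or, for the number of members, within 1.5 times; those on coding exons, A+T, joined regions, replicate ratios and the X were chosen after seeing the data. The number of members was 1182 with a summit over 100 bp from every conservative summit, and also 1182 when a peak counted as shared only with at least 50% of the shorter peak in common, but 529 at an IDR of 0.005 or below. At that IDR the share in both replicates' sets was 2.08%, the share in neither 28.4%, the coding-exon share 1.70% and the mean A+T 60.1%. The share in both sets was 4.23% under either overlap rule. The 2 overlap rules gave the same value for every result, so they stand as 1 check, although the 45 values count each. With members kept only if the set of the remaining replicate held them, their number was 224 to 316, the promoter share 36.1% to 41.5%, the coding-exon share 1.58% to 2.68% and the mean A+T 58.0% to 63.1%. The promoter share was 29.7% with a window of 250 bp, 46.6% with 1000 bp and 38.7% with TSSs of all gene types. The coding-exon share was 3.28% with 1000 bp. The share of members over 2-fold apart was 33.6% with the strongest overlapping candidate. Except where fewer peaks or another window set the change, the cause was not tested. The depth is unknown, so weak and absent signal cannot be told apart.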

Other observations

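Members near TSSs of genes that make no protein were also counted. A member summit lay within 500 bp of a TSS in 61 of 3261 non-coding RNA genes (1.87%, exact 95% interval 1.43 to 2.40). Over protein-coding genes the share was 3.43%. Shared peaks were not counted at these non-coding TSSs, so nothing is read from the shares about members in particular. The strongest such members were at lncRNA:CR46265 (signal 244, the peak in the ChAT intron), lncRNA:CR43144 (171) and asRNA:CR45648 (135). Of 290 tRNA genes, tRNA:Glu-CTC-3-1 (73.4) and tRNA:Ala-AGC-2-1 (64.4) had one, and of 32 snRNA genes snRNA:U4:39B (67.5). None of 269 snoRNA genes (upper bound 1.36%) or of 99 rRNA genes (upper bound 3.66%) had one. Repeated genes can lack peaks where reads map to several copies, and the mapping was not analysed here.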
